A study of Homo sapiens with 16 samples.

Results

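The actin isoforms and smooth muscle genes described here are 10 genes chosen by name: the 4 muscle actins ACTC1, ACTA1, ACTA2 and ACTG2, and TAGLN, CNN1, MYL9, MYH11, TPM2 and CALD1, of 43388 genes measured in all. RNA was measured in 16 libraries of cardiomyocytes made from the WT human induced pluripotent stem cell line WTC11 (hPSC-CMs). Each of the 4 groups held 4 wells, all of the same differentiation. All groups were differentiated by the GiWi protocol, in which Wnt signalling is first activated and then inhibited, from cardiac progenitors that had been pooled and frozen, and all media held the serum-free supplement B27. Day 16 RPMI/B27 was the baseline, and from that day cells were kept to Day 30 in standard RPMI/B27, in RPMI_glcM/B27, which is RPMI with glucose set to the 5 mM of plasma-like medium, or in HPLM/B27, whose base is human plasma-like medium. The wells came from 1 line and 1 differentiation, so p-values here measure the spread between wells. Values are TPM (transcripts per 1000000, a unit of transcript level corrected for gene length, not to be confused with the tropomyosin genes TPM1 to TPM4). Of the 10 genes, 9 had a mean of at least 1 TPM and were tested, and MYH11 was listed at 0 TPM in all 16 libraries.

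Actin is the thin filament protein on which myosin pulls. ACTC1 encodes the cardiac alpha-actin, ACTA1 the skeletal alpha-actin, ACTA2 the vascular smooth muscle alpha-actin and ACTG2 the enteric smooth muscle gamma-actin, while ACTB and ACTG1 encode the cytoplasmic actins found in nearly all cells. The embryonic heart is known to make ACTA2, TAGLN and other smooth muscle genes for a time before they give way to the sarcomeric genes. Many of these genes are known targets of serum response factor (SRF) and its partner myocardin (MYOCD), which bind a short sequence called the CArG box.

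The sequences upstream of the start site show how alike the actin genes are in this element. Upstream sequences of 7 of the 10 genes were matched by symbol in RefSeq (GRCh38.p14), without TAGLN, MYL9 and MYH11. The 160 bases that end just before the start site are shown for the 4 muscle actins, for ACTC1 and ACTA2 in the 1 promoter of several that holds a match, and capitals mark the CArG box (10 bases with a core of 6 A or T bases) and the form with 1 G or C in the core. Both forms read as themselves on the opposite strand, and no printed match overlaps another. ACTC1 is at chr15:34795550-34795709 and ACTA1 at chr1:229434095-229434254, both on the minus strand. ACTA2 is at chr10:88952774-88952933 on the minus strand and ACTG2 at chr2:73892848-73893007 on the plus strand.
ACTC1: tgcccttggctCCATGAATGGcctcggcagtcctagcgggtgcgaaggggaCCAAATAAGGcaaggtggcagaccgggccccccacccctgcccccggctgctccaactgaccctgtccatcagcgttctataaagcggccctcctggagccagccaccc
ACTA1: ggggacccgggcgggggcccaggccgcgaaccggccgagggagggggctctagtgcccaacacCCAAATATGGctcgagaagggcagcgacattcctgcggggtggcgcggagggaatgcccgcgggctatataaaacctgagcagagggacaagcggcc
ACTA2: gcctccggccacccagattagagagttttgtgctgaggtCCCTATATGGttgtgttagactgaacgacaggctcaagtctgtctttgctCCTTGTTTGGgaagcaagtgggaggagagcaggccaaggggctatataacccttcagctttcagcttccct
ACTG2: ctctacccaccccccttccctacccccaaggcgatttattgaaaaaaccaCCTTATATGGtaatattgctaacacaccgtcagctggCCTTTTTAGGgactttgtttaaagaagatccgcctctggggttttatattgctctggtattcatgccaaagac

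ACTC1, ACTA1 and ACTG2 held a CArG box within 250 bases before the start, each in 1 promoter, which is 3 of the 14 promoters of these 7 genes, and 1.16% of the 35116 promoters searched hold one. Its first base lay 109 bases before the start in ACTC1, 97 in ACTA1, and 110 and 73 in ACTG2. ACTA2 held only the form with 1 G or C, at 121 and 71 bases before the start, and CALD1 held that form in 1 of its promoters. Either form was present in 5 of the 14 promoters, against 7.04% of all promoters, and so in 5 of the 7 genes, against 8.60% of all genes in the table. CNN1 and TPM2 held neither form in this window.

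The coding sequences of the alpha-actins are close, and where they differ decides whether their reads can be told apart. The first 60 coding bases are shown, with capitals where ACTA1 or ACTA2 differs from ACTC1.
ACTC1: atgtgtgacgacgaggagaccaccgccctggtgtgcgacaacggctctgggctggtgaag
ACTA1: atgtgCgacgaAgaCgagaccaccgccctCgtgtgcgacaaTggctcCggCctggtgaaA
ACTA2: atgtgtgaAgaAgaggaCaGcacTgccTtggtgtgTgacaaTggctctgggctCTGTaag
ACTA1 differed from ACTC1 at 8 of these bases and ACTA2 at 12. Over all 1134 coding bases ACTC1 was 85.6% identical to ACTA1 and 85.5% to ACTA2. Of all stretches of 50 bases in the transcript of each gene, none in ACTC1, ACTA2 or ACTG2 and 0.763% in ACTA1 occurred exactly in another of the 6 actin genes. Pseudogenes were not part of that comparison.

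Several of the 10 genes lie on the opposite strand of another gene. ACTC1 (chromosome 15, 34790230 to 34795549, GRCh38.p14) overlaps GJD2-DT, ACTA2 (chromosome 10, 88935074 to 88991337) overlaps FAS, STAMBPL1 and ACTA2-AS1, TAGLN (chromosome 11, 117199294 to 117207465) overlaps PCSK7, MYL9 (chromosome 20, 36541519 to 36551447) overlaps DLGAP4-AS1, and MYH11 (chromosome 16, 15703135 to 15857028) overlaps NDE1. ACTA2, TAGLN, MYH11 and CALD1 each also overlap an annotated gene without a symbol on the same strand, which strand cannot separate. The library kit keeps the strand, but whether the counting used it is not given in the sources used here. MYH11 encodes the smooth muscle myosin heavy chain, and NDE1, a gene of dividing cells, was itself at 0.0373 to 0.405 TPM with 1 to 16 reads. NDE1 ends at 15726353, so it covers only part of MYH11. How the 0 of MYH11 arose was not tested, and it is given as listed and not read as a level. ACTA2-AS1 was at 1.2 to 12.1 TPM, and like ACTA2 it was highest in replicate 3 of Day 30 RPMI/B27 (12.1 TPM), but its lowest value was in replicate 4 of Day 30 RPMI_glcM/B27.

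Each library held 7744784 to 16183671 recovered reads, so the 9 tested genes rest on at least 44 reads in each library and ACTC1 on at least 27246. The labelled cell type was borne out by the 8 cardiomyocyte markers, whose summed level was 13158 to 17643 TPM in all libraries. RNR1, a mitochondrial ribosomal RNA, ranged from 49.5 to 29276 TPM between libraries, which moves the share left for all other genes. Over all 16122 genes the median log2 fold change from Day 16 was -0.28, -0.22 and -0.29 in the order RPMI/B27, RPMI_glcM/B27, HPLM/B27. The fold changes from Day 16 below are to be read beside that shift.

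A single library, replicate 3 of Day 30 RPMI/B27, stood apart in these genes. All 9 tested genes were at their highest of the group there, while 8.54% of all genes were. The median over the 9 genes lay 1.25 log2 units above the mean of the other 3 libraries, against -0.28 for all genes. TAGLN was 5.44 times, ACTA1 5.08 times and ACTA2 4.94 times the mean of the other 3, whereas ACTG2 was 1.28 times. SRF was 2.9 times that mean and MYOCD 0.911 times. This library was also the deepest, at 16183671 reads, and its RNR1 was 14387 TPM. TNNT2, cardiac troponin T, was 1.98 times the mean of the others. The summed fibroblast markers were the lowest of the group (229 TPM, others 275 to 439), and the summed smooth muscle and pericyte markers were within it (276 TPM, others 184 to 299). LMOD1, which is in the smooth muscle and pericyte list, was at 94.5 TPM there and at 29.0, 32.3 and 29.3 TPM in the others. The other markers of that list are given here only as the sum. The part of any of these in the result was not tested.

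Replicate 2 of Day 16 stood apart in the opposite direction. It was the lowest of its group in 8 of the 9 genes, against 15.7% of all genes, with ACTA2 at 0.371 times, TAGLN at 0.524 times and SRF at 0.513 times the mean of the other 3. Its fibroblast marker sum was the highest of the group (921 TPM, others 544 to 715). Replicate 4 of Day 30 HPLM/B27 was the highest of its group in 7 of the 9 genes (16.0% of all genes), and replicate 4 of Day 30 RPMI/B27 the lowest in 7 of 9 (55.5% of all genes). The libraries that stood apart are, in what follows, replicate 3 of Day 30 RPMI/B27 and replicate 2 of Day 16. Some results of the 9 genes are given with and without them. The ratio tests, regulators, related lists, markers and correlations are given with all libraries only.

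**Figure D1:**
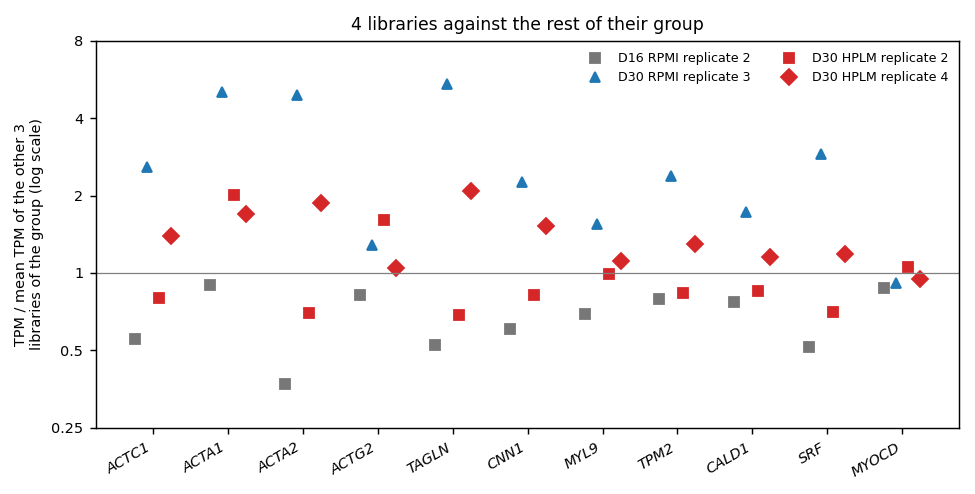
TPM of each gene in 4 libraries, divided by the mean TPM of the other 3 libraries of the same group, on a log axis (base 2). Replicate 3 of Day 30 RPMI/B27 (blue triangles) lies above 1 for all 9 genes and for SRF, and below 1 for MYOCD, while replicate 2 of Day 16 (grey squares) lies below 1 throughout.

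ACTC1 was the most abundant of these genes in every library and did not pass the test in any comparison. At Day 16 it was at 4391, 2469, 4963 and 4045 TPM in replicates 1 to 4. At Day 30 it was at 2362, 1891, 4804 and 1351 TPM in RPMI/B27, at 2815, 3032, 2689 and 2386 TPM in RPMI_glcM/B27, and at 2708, 2973, 3983 and 4469 TPM in HPLM/B27. The groups overlapped in each pair, and the order of the means was Day 16 (3967 ± 1068 TPM, SD, n = 4), HPLM/B27 (3533 ± 831), RPMI_glcM/B27 (2730 ± 270) and RPMI/B27 (2602 ± 1525), with no neighbours that differed beyond their spread. From Day 16 to Day 30 RPMI/B27 the log2 fold change was -0.73 (standard error 0.30, limma adjusted p = 0.0936). It was -1.08 (adjusted p = 0.00784) without replicate 3 of Day 30 RPMI/B27, and -1.29 (adjusted p = 0.00136) without that library and replicate 2 of Day 16. Without those 2 libraries ACTC1 also passed in HPLM/B27 against RPMI/B27, at 0.93 (adjusted p = 0.0183), where all libraries gave 0.58 (standard error 0.30, adjusted p = 0.388), and in RPMI_glcM/B27 against Day 16, at -0.71 (adjusted p = 0.0187), where all gave -0.50 (standard error 0.30, adjusted p = 0.261).

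ACTA1, the skeletal isoform, lay above the Day 16 range in every HPLM/B27 and RPMI_glcM/B27 library, and whether the difference in HPLM/B27 passed the test depended on the processing. Day 16 libraries held 85.4, 85.8, 109 and 93.4 TPM. RPMI_glcM/B27 held 123.3, 135.4, 124.1 and 122.95 TPM, and HPLM/B27 held 122, 416, 125 and 374 TPM. The HPLM/B27 wells thus fell into 2 pairs, replicates 1 and 3 close to RPMI_glcM/B27 and replicates 2 and 4 well above all Day 16 libraries. RNR1 did not follow that division, at 6359 and 203 TPM in replicates 1 and 3 and at 138 and 5889 TPM in replicates 2 and 4. In RPMI/B27 ACTA1 was at 106, 102, 468 and 68.8 TPM. Against Day 16 the log2 fold change was 1.24 in HPLM/B27 (standard error 0.48, limma adjusted p = 0.0664), 0.44 in RPMI_glcM/B27 (standard error 0.48, adjusted p = 0.553) and 0.55 in RPMI/B27 (standard error 0.48, adjusted p = 0.413). The last of these was -0.04 without replicate 3 of Day 30 RPMI/B27. The HPLM/B27 value passed when replicate 1 or 3 of HPLM/B27 or replicate 3 of RPMI/B27 was left out (1.24 to 1.52, lowest adjusted p = 0.012). For ACTA1 it was 1.20 (adjusted p = 0.0312) without both libraries that stood apart, and it passed in 5 of 9 other processing settings (adjusted p = 0.0207 to 0.121 over the 9). The RPMI_glcM/B27 difference passed in 1 of 9, the fit of only the 2 groups compared (0.44, adjusted p = 0.00785), and was 0.40 (adjusted p = 0.497) without both libraries. Means ranked HPLM/B27 (259 ± 158 TPM, SD, n = 4), RPMI/B27 (186 ± 189), RPMI_glcM/B27 (126 ± 5.99) and Day 16 (93.4 ± 11.1).

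ACTA2, the vascular smooth muscle isoform, was called lower than at Day 16 in each of the 3 media, though not in all processing settings. Day 16 libraries held 439, 160, 474 and 383 TPM. RPMI/B27 held 110, 100, 444 and 58.8 TPM, RPMI_glcM/B27 139, 122, 115 and 103 TPM, and HPLM/B27 100, 94.2, 114 and 192 TPM. All RPMI_glcM/B27 libraries lay below all Day 16 libraries, whereas 1 library of RPMI/B27 and 1 of HPLM/B27 reached into the Day 16 range. The log2 fold changes were -1.36 (standard error 0.46, limma adjusted p = 0.0497), -1.49 (standard error 0.46, adjusted p = 0.0311) and -1.48 (standard error 0.46, adjusted p = 0.0287) in the order RPMI/B27, RPMI_glcM/B27, HPLM/B27. In bulk RNA, fewer cells that make a transcript and less of it per cell cannot be told apart.

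The ACTA2 calls were close to the threshold, rest on few libraries and depended on the processing. Of 9 other processing settings, ACTA2 was called in 2 for RPMI/B27, 5 for RPMI_glcM/B27 and 5 for HPLM/B27. The highest limma adjusted p over these settings was 0.212, 0.101 and 0.133 in that order. In RPMI/B27 ACTA2 was still called when replicate 2 of Day 16 was left out (-1.71, adjusted p = 0.0232) or replicate 3 of RPMI/B27 (-1.94, adjusted p = 0.00176), and without both the log2 fold change was -2.30 (adjusted p = 9.67e-05). With any other of the 16 libraries left out it was not called (-1.36 to -0.98, adjusted p up to 0.189). In RPMI_glcM/B27 the ACTA2 call was lost without any of replicates 1, 3 and 4 of Day 16 or 2, 3 and 4 of RPMI_glcM/B27 (weakest at -1.33, adjusted p up to 0.090), and in HPLM/B27 without replicates 1, 3 and 4 of Day 16 or 1, 2 and 3 of HPLM/B27 (-1.46 to -1.32, adjusted p up to 0.0807).

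ACTG2, the enteric isoform, was the least abundant of the 4 muscle actins and the only gene of the 10 that passed between media at Day 30. Day 16 libraries held 25.9, 21.2, 27.03 and 24.5 TPM (113 to 144 reads). RPMI/B27 held 19.6, 22.6, 23.1 and 11.7 TPM, RPMI_glcM/B27 14.3, 15.2, 14.2 and 13.96 TPM, and HPLM/B27 9.29, 13.97, 6.41 and 10.3 TPM (44 to 84 reads). All RPMI_glcM/B27 and HPLM/B27 libraries lay below all Day 16 libraries. Against Day 16 ACTG2 fell by 0.73 on the log2 scale in RPMI_glcM/B27 (standard error 0.21, limma adjusted p = 0.0188) and by 1.26 in HPLM/B27 (standard error 0.21, adjusted p = 0.000468), while the difference in RPMI/B27 was -0.38 (standard error 0.21, adjusted p = 0.193). HPLM/B27 was below RPMI/B27, at -0.88 on the log2 scale (standard error 0.21, adjusted p = 0.0325), although replicate 4 of RPMI/B27 lay within the HPLM/B27 range. The fall from Day 16 in HPLM/B27 was called with each of the 16 libraries left out in turn. The fall in RPMI_glcM/B27 was lost without replicate 1 or 3 of Day 16 (-0.71 and -0.69), and with each library scaled by median-of-ratios factors ACTG2 differed there by -0.48 (adjusted p = 0.0831). The difference between HPLM/B27 and RPMI/B27 was lost without replicate 1, 2 or 3 of RPMI/B27 or replicate 1, 3 or 4 of HPLM/B27 (-0.91 to -0.71, adjusted p up to 0.122), and for ACTG2 it was -0.78 (adjusted p = 0.0701) and not called without both libraries that stood apart.

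**Figure D2:**
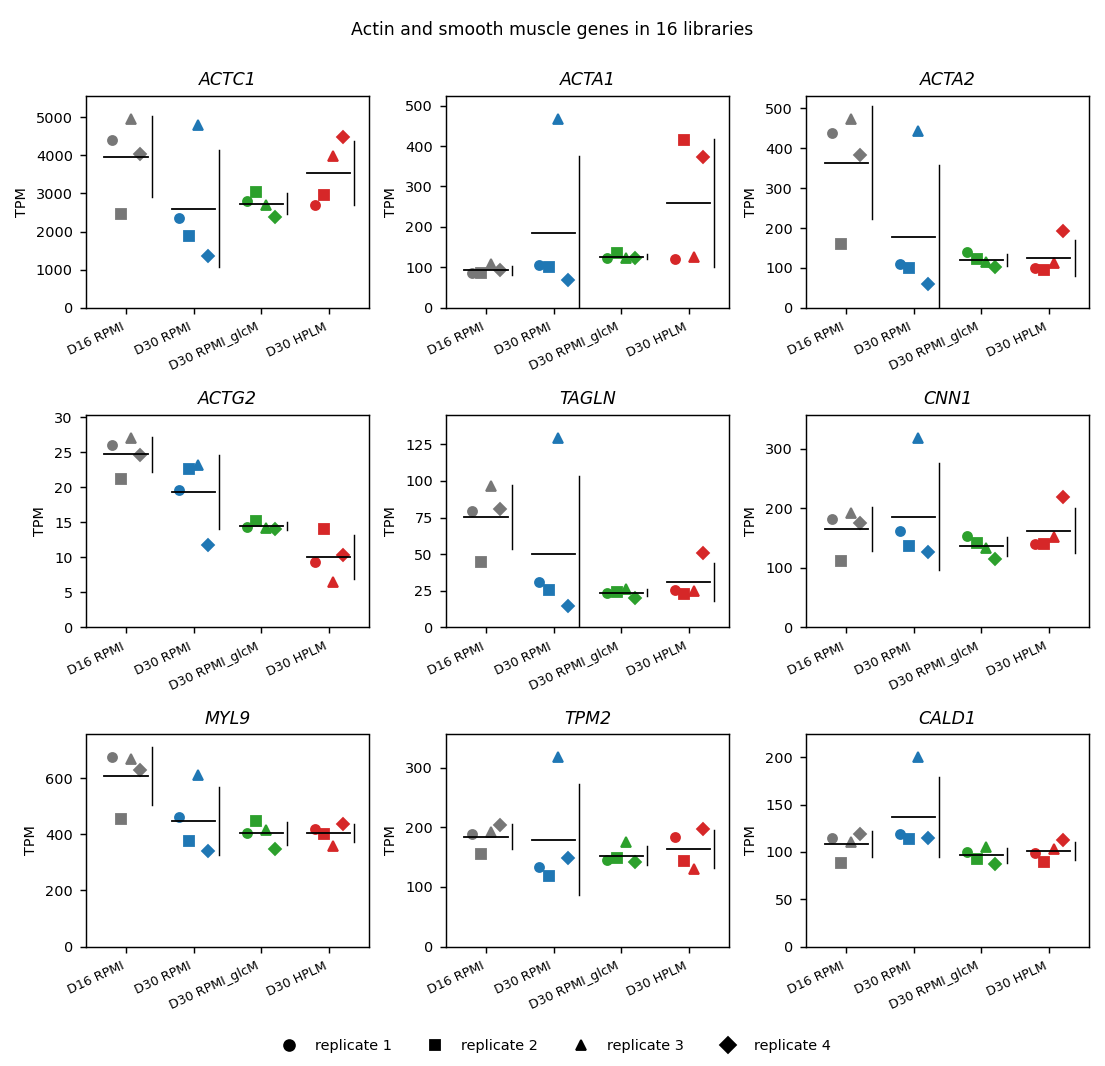
TPM of the 9 tested genes in each library, by group on the x axis, with replicate number given by the symbol, a horizontal line at the group mean and a vertical bar of 1 SD on each side (n = 4), drawn from 0 where it would go lower. Replicate 3 of Day 30 RPMI/B27 (triangle) is the highest of its group in every panel, and replicate 2 of Day 16 (square) is the lowest of its group in all panels but ACTA1.

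As shares of the summed TPM of the 6 actin genes, ACTC1 held 73.8% ± 1.61 (SD, n = 4) at Day 16 and 75.8% ± 0.57, 76.9% ± 1.20 and 77.6% ± 3.16 in the order RPMI/B27, RPMI_glcM/B27, HPLM/B27. ACTA2 held 6.57% ± 1.29 at Day 16 and 4.47% ± 1.73, 3.37% ± 0.252 and 2.72% ± 0.505 at Day 30. ACTA1 held 1.82% ± 0.457 at Day 16 and 4.68% ± 1.83, 3.58% ± 0.261 and 5.72% ± 3.50 at Day 30. The share of ACTA2 exceeded that of ACTA1 in all 4 Day 16 libraries, and that of ACTA1 exceeded ACTA2 in all 4 HPLM/B27 libraries. The share of ACTA1 was also the larger in every RPMI/B27 and RPMI_glcM/B27 library but replicate 1 of each. ACTB, the main cytoplasmic actin, held 14.3% ± 1.82 at Day 16 and 10.4% ± 2.26, 10.8% ± 0.64 and 10.4% ± 1.32 at Day 30.

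A ratio within a library does not depend on how much of the library other RNAs take. At Day 16 there were 51.4, 28.8, 45.5 and 43.3 ACTC1 transcripts per ACTA1 transcript, and at Day 30 22.3, 18.6, 10.3 and 19.6 in RPMI/B27, 22.8, 22.4, 21.7 and 19.4 in RPMI_glcM/B27, and 22.3, 7.14, 31.8 and 12.0 in HPLM/B27. All RPMI/B27 and RPMI_glcM/B27 libraries lay below all Day 16 libraries, and 1 HPLM/B27 library lay among them. The log2 ratio of ACTA1 to ACTC1 was 1.28 higher in RPMI/B27 and 0.94 higher in RPMI_glcM/B27 than at Day 16 (two-sided exact permutation p = 0.0286 for each, the smallest that 4 against 4 libraries allow, adjusted p = 0.0686 over 12 ratio tests). In HPLM/B27 it was 1.40 higher (exact permutation p = 0.0571, adjusted p = 0.098). None of the 12 passed after adjustment.

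For ACTA2 the ratio went the opposite way. There were 10.01, 15.4, 10.5 and 10.6 ACTC1 transcripts per ACTA2 transcript at Day 16, and 21.4, 18.8, 10.8 and 23.0 in RPMI/B27, 20.3, 24.9, 23.4 and 23.1 in RPMI_glcM/B27, and 27.1, 31.6, 35.1 and 23.2 in HPLM/B27. HPLM/B27 libraries lay outside the range of both Day 16 and RPMI/B27. The log2 ratio of ACTA2 to ACTC1 differed from Day 16 by -1.001 in RPMI_glcM/B27 and by -1.34 in HPLM/B27, and between HPLM/B27 and RPMI/B27 by -0.70 (exact permutation p = 0.0286 for each, adjusted p = 0.0686). RPMI/B27 differed from Day 16 by -0.64 (exact permutation p = 0.0571, adjusted p = 0.098). HPLM/B27 differed from RPMI_glcM/B27 by -0.34 (exact permutation p = 0.0857, adjusted p = 0.129).

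**Figure D3:**
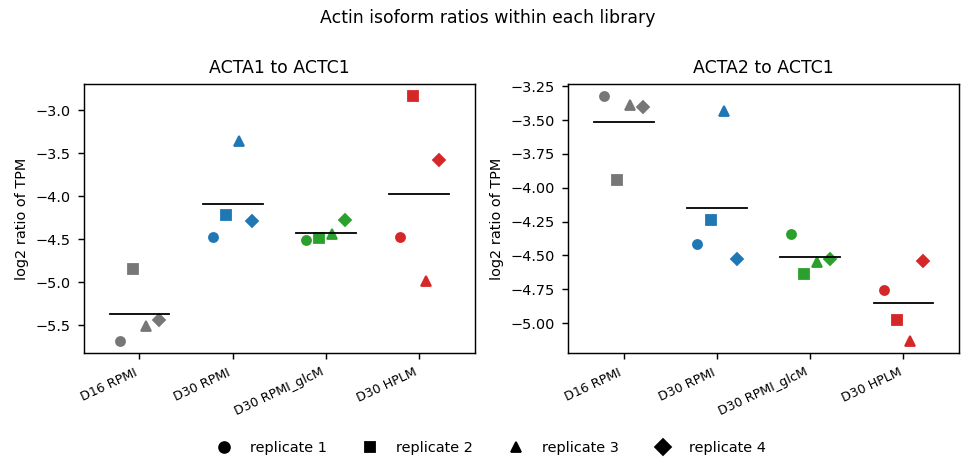
Log2 ratio of ACTA1 to ACTC1 TPM (left) and of ACTA2 to ACTC1 TPM (right) in each library, by group, with replicate given by the symbol and the group mean by a line. The ACTA1 ratio is lowest at Day 16, whose mean is -5.37, and the ACTA2 ratio is highest there, at -3.51, with HPLM/B27 lowest at -4.85.

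Among the smooth muscle genes TAGLN, which encodes the actin-binding protein transgelin (SM22), fell in RPMI_glcM/B27 and HPLM/B27. It was at 79.7, 44.9, 96.7 and 80.8 TPM at Day 16. At Day 30 it was at 31.1, 25.7, 129 and 14.7 TPM in RPMI/B27, at 23.6, 24.2, 26.2 and 20.1 TPM in RPMI_glcM/B27, and at 25.1, 23.0, 24.9 and 50.8 TPM in HPLM/B27. All RPMI_glcM/B27 libraries and 3 of 4 HPLM/B27 libraries lay below all Day 16 libraries. TAGLN fell by 1.59 on the log2 scale in RPMI_glcM/B27 (standard error 0.46, limma adjusted p = 0.0206) and by 1.28 in HPLM/B27 (standard error 0.46, adjusted p = 0.0498), and its difference in RPMI/B27 was -1.0203 (standard error 0.46, adjusted p = 0.12). That difference was -1.63 (adjusted p = 0.00253) without replicate 3 of RPMI/B27 and -1.86 (adjusted p = 0.000976) also without replicate 2 of Day 16. In RPMI_glcM/B27 the TAGLN call was lost without replicate 1 or 3 of Day 16 or replicate 4 of RPMI_glcM/B27 (weakest at -1.46, adjusted p up to 0.0623). In HPLM/B27 it held only without replicate 2 of Day 16, 3 or 4 of RPMI/B27, or 4 of HPLM/B27, and the values over all single omissions were -1.54 to -1.15, with adjusted p up to 0.12.

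MYL9, the regulatory light chain of smooth muscle and non-muscle myosin, was second in abundance to ACTC1 and also fell. It was at 675, 455, 669 and 628 TPM at Day 16, 463, 375, 610 and 340 TPM in RPMI/B27, 403, 446, 417 and 348 TPM in RPMI_glcM/B27, and 418, 403, 359 and 437 TPM in HPLM/B27. The RPMI_glcM/B27 and HPLM/B27 libraries all lay below the lowest Day 16 library. MYL9 fell by 0.58 on the log2 scale in RPMI_glcM/B27 (standard error 0.17, limma adjusted p = 0.0208) and by 0.57 in HPLM/B27 (standard error 0.17, adjusted p = 0.0198), with -0.46 in RPMI/B27 (standard error 0.17, adjusted p = 0.0607). The MYL9 difference in RPMI/B27 passed without replicate 2 of Day 16 (-0.59, adjusted p = 0.0253) or replicate 3 of RPMI/B27 (-0.62, adjusted p = 0.0124). The call in RPMI_glcM/B27 was lost without replicate 1 or 3 of Day 16 or replicate 4 of RPMI_glcM/B27 (-0.52 to -0.51), and that in HPLM/B27 without replicate 1 or 3 of Day 16 or replicate 3 of HPLM/B27 (-0.52 to -0.51). With each library scaled by median-of-ratios factors, which takes out the shift of all genes, MYL9 differed from Day 16 by -0.31 and -0.23 (adjusted p = 0.328 and 0.491).

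CNN1, TPM2 and CALD1 did not pass in any comparison. CNN1 encodes calponin 1, which inhibits the myosin ATPase, and was at 182, 111, 193 and 175 TPM at Day 16, 161, 137, 319 and 126 TPM in RPMI/B27, 153, 141, 134 and 116 TPM in RPMI_glcM/B27, and 140, 139, 151 and 219 TPM in HPLM/B27. TPM2, which encodes beta-tropomyosin, ranged from 155 to 203 TPM at Day 16, 119 to 318 in RPMI/B27, 141 to 175 in RPMI_glcM/B27 and 130 to 198 in HPLM/B27. CALD1, which encodes caldesmon, ranged from 88.4 to 119 TPM at Day 16, 114 to 200 in RPMI/B27, 87.2 to 105 in RPMI_glcM/B27 and 89.5 to 112 in HPLM/B27. All 4 RPMI/B27 libraries were above all RPMI_glcM/B27 and all HPLM/B27 libraries for CALD1, with log2 fold changes of -0.46 in RPMI_glcM/B27 (standard error 0.16, limma adjusted p = 0.163) and -0.40 in HPLM/B27 (standard error 0.16, adjusted p = 0.236). For CNN1, TPM2 and CALD1 the differences from Day 16 lay between -0.27 and 0.31, and with median-of-ratios scaling between -0.01 and 0.64, so no direction is given for them. CALD1 was called as higher in RPMI/B27 than at Day 16 by limma-voom on recovered reads (0.65, adjusted p = 0.0393). Without replicate 3 of RPMI/B27 and replicate 2 of Day 16, TPM2 passed in RPMI/B27 against Day 16 at -0.55 (adjusted p = 0.0342), against -0.15 with all libraries.

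Counted over the list, 1 of the 9 tested genes was lower in RPMI/B27 than at Day 16 (ACTA2), against 17.8% of all genes tested, and 0 were higher (2.08% of all). In RPMI_glcM/B27 4 of 9 were lower (ACTA2, ACTG2, TAGLN and MYL9), against 17.8% of all genes, and 0 higher (3.34% of all). In HPLM/B27 the same 4 genes were lower, against 22.4% of all genes, and 0 higher (3.00% of all). The median log2 fold changes of the 9 genes were -0.38, -0.50 and -0.18, beside -0.28, -0.22 and -0.29 for all genes. The 3 comparisons share the Day 16 libraries, so their agreement is not independent. Without both libraries that stood apart 5, 5 and 4 of the 9 were lower (8.73%, 14.4% and 17.0% of all genes) and 0, 0 and 1 higher (2.77%, 3.87% and 3.62%).

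The median-of-ratios scaling changed these counts. Genes called higher and lower than at Day 16 were 336 and 2867 in RPMI/B27, 538 and 2862 in RPMI_glcM/B27 and 483 and 3605 in HPLM/B27, and with this scaling 1389 and 1437, 2156 and 2282, and 2074 and 2012. Of the 9 genes, 0, 0 and 2 were then called (8.91%, 14.2% and 12.5% of all genes lower, 8.62%, 13.4% and 12.9% higher). ACTA2 was at -1.021, -1.23 and -1.14 in the 3 media (adjusted p = 0.212, 0.101 and 0.133) and was not called. TAGLN was at -1.34 (adjusted p = 0.0705) in RPMI_glcM/B27 and -0.95 (adjusted p = 0.207) in HPLM/B27. ACTG2 in RPMI_glcM/B27 was at -0.48 (adjusted p = 0.0831). ACTG2 in HPLM/B27 against Day 16 was still called, at -0.94 (adjusted p = 0.00231), and ACTA1 in HPLM/B27 was then called as higher, at 1.58 (adjusted p = 0.0415).

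Between media at Day 30 the design asks what glucose level and what the rest of the plasma-like medium change. In RPMI_glcM/B27 against RPMI/B27 0 of the 9 genes passed in limma (all genes: 1.36% higher and 0.837% lower), and unadjusted p was under 0.05 for CALD1. In HPLM/B27 against RPMI/B27 1 of 9 was lower, ACTG2 (all genes: 1.51% higher and 0.893% lower). Without both libraries that stood apart ACTG2 was not called there, and ACTC1 was called as higher (all genes: 1.37% higher and 1.73% lower). In HPLM/B27 against RPMI_glcM/B27 0 of 9 passed (all genes: 0.0496% higher and 0.0186% lower), and the unadjusted p was under 0.05 for ACTG2, at -0.53 (standard error 0.21, adjusted p = 0.612). Limma-voom on the recovered reads also called 0 genes of the list in the first and the last of these comparisons.

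**Figure D4:**
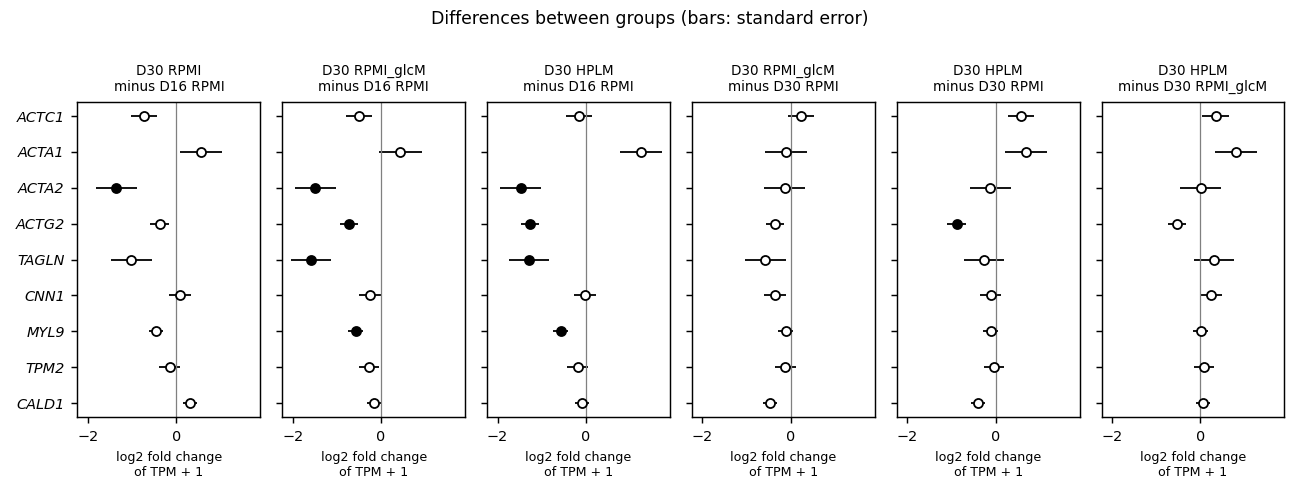
Log2 fold change of TPM + 1 for the 9 tested genes in the 6 comparisons, with bars of 1 standard error from limma, and filled points for an adjusted p under 0.05. Filled points are all to the left of 0: ACTA2 in the 3 comparisons with Day 16, ACTG2, TAGLN and MYL9 in those of RPMI_glcM/B27 and HPLM/B27, and ACTG2 in HPLM/B27 against RPMI/B27.

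The regulators of these genes moved unevenly. SRF was at 64.6, 30.9, 64.2 and 52.0 TPM at Day 16 and at 35.5, 33.7, 89.9 and 23.8 TPM in RPMI/B27, with 45.9 to 63.0 TPM in RPMI_glcM/B27 and 41.0 to 61.3 TPM in HPLM/B27, and it passed in no comparison (limma adjusted p = 0.453 or more). MYOCD fell from 149 ± 18.2 TPM (SD, n = 4) at Day 16 to 90.4 ± 23.9, 81.5 ± 12.5 and 74.3 ± 2.53 TPM, with log2 fold changes of -0.75, -0.87 and -0.98 (standard error 0.17, adjusted p = 0.00698, 0.00191 and 0.000717), and without overlap between Day 16 and any Day 30 group. Of 19 regulators tested, 9, 9 and 10 were lower and 3, 2 and 2 higher than at Day 16 (17.8%, 17.8% and 22.4% of all genes lower, 2.08%, 3.34% and 3.00% higher). With median-of-ratios scaling 6, 7 and 8 were lower and 3, 5 and 4 higher (8.91%, 14.2% and 12.5% of all genes lower, 8.62%, 13.4% and 12.9% higher). TGFB2, a TGF-beta ligand that induces smooth muscle genes, fell from 247 ± 22.4 TPM to 116 ± 27.3, 99.4 ± 16.8 and 78.5 ± 3.06 TPM, and SMAD3, which carries that signal to the nucleus, fell from 18.04 ± 2.4997 to 10.9 ± 2.35, 9.31 ± 0.685 and 8.46 ± 0.717 TPM. HOPX, which binds SRF and restrains it, rose from 3.84 ± 0.683 TPM to 18.5 ± 9.58, 9.04 ± 1.32 and 8.77 ± 1.62 TPM. TGFB1 was lower in RPMI_glcM/B27 than in RPMI/B27, at 14.8 ± 2.07 against 25.6 ± 4.66 TPM (log2 fold change -0.74, standard error 0.17, adjusted p = 0.0288).

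Relatives of the 10 genes in the actin, myosin, tropomyosin, calponin and transgelin families were tested as a separate list. Of 14 relatives tested, 7, 8 and 7 were lower and 0, 0 and 1 higher than at Day 16 (17.8%, 17.8% and 22.4% of all genes lower, 2.08%, 3.34% and 3.00% higher), with median log2 fold changes of -0.44, -0.56 and -0.57. ACTB fell from 748 ± 126 TPM (SD, n = 4) to 327 ± 107, 383 ± 43.7 and 465 ± 56.6 TPM, by 1.24, 0.96 and 0.68 on the log2 scale (standard error 0.20, limma adjusted p = 0.000754, 0.00295 and 0.0207). MYH10, a non-muscle myosin heavy chain, fell from 157 ± 9.02 to 70.8 ± 10.9, 72.2 ± 9.19 and 61.7 ± 3.58 TPM, and TPM4, a cytoskeletal tropomyosin, from 58.9 ± 10.9 to 37.9 ± 15.0, 24.1 ± 0.98 and 32.1 ± 4.50 TPM. ACTG1 was lower in RPMI/B27 (117 ± 20.3 TPM) than at Day 16 (159 ± 22.8 TPM) and higher in RPMI_glcM/B27 (173 ± 13.9 TPM) than in RPMI/B27 (log2 fold change 0.57, standard error 0.13, adjusted p = 0.0324). With median-of-ratios scaling 3, 5 and 1 of the 14 were lower and 0, 0 and 1 higher (8.91%, 14.2% and 12.5% of all genes lower, 8.62%, 13.4% and 12.9% higher). The share lower in HPLM/B27 was then below that of all genes. Of ACTB, MYH10 and TPM4, no more than 1 can thus have been called lower in HPLM/B27 with this scaling.

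The proteins that cap, nucleate or bind actin filaments held genes that fell and genes that rose. Of 23 tested, 8, 8 and 6 were lower and 2, 1 and 2 higher than at Day 16 (17.8%, 17.8% and 22.4% of all genes lower, 2.08%, 3.34% and 3.00% higher), a share in HPLM/B27 near that of all genes. COTL1, a coactosin-like actin-binding protein, fell from 44.8 ± 5.11 TPM (SD, n = 4) to 12.7 ± 3.65, 8.07 ± 1.0196 and 9.57 ± 1.81 TPM. LMOD3, a leiomodin that nucleates thin filaments in striated muscle, rose from 5.01 ± 1.06 TPM to 15.8 ± 3.33, 16.7 ± 1.31 and 24.3 ± 2.63 TPM, and was higher in HPLM/B27 than in RPMI/B27 (log2 fold change 0.61, standard error 0.15, limma adjusted p = 0.0459). LMOD2, its cardiac relative, rose from 327 ± 60.5 to 595 ± 101 TPM in RPMI/B27 and 625 ± 84.1 TPM in HPLM/B27, with 459 ± 97.6 TPM in RPMI_glcM/B27 (adjusted p = 0.065). TMSB4X, which encodes the actin-sequestering thymosin beta 4, was lower in RPMI_glcM/B27 (37.9 ± 6.03 TPM) than in RPMI/B27 (69.7 ± 16.1 TPM; log2 fold change -0.84, standard error 0.17, adjusted p = 0.0137). With median-of-ratios scaling 1, 5 and 4 of the 23 were lower and 7, 7 and 8 higher (8.91%, 14.2% and 12.5% of all genes lower, 8.62%, 13.4% and 12.9% higher).

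Other contractile genes shared with smooth muscle formed the last list. Of 21 tested, 4 were lower than at Day 16 in RPMI/B27, 12 were lower in RPMI_glcM/B27, 9 were lower in HPLM/B27, and 2 were higher in each (17.8%, 17.8% and 22.4% of all genes lower, 2.08%, 3.34% and 3.00% higher), a share in RPMI/B27 near that of all genes. With median-of-ratios scaling 1, 7 and 4 were lower and 3 higher in each (8.91%, 14.2% and 12.5% of all genes lower, 8.62%, 13.4% and 12.9% higher). Whether these counts differ between media was not tested. SYNPO2, synaptopodin 2 of the Z-disc and of smooth muscle, was at 23.5 ± 3.79 TPM (SD, n = 4) at Day 16, while RPMI/B27 held 19.2 ± 4.26 TPM, RPMI_glcM/B27 11.7 ± 1.32 TPM and HPLM/B27 11.4 ± 1.07 TPM, and it was lower in both 5 mM glucose media than in RPMI/B27, by 0.65 and 0.69 on the log2 scale (standard error 0.16, limma adjusted p = 0.0387 and 0.0279). PPP1R14A, an inhibitor of myosin phosphatase, fell from 40.8 ± 11.0 to 15.9 ± 3.58 TPM in RPMI_glcM/B27 and 17.2 ± 5.73 TPM in HPLM/B27. DES, which encodes the muscle intermediate filament desmin, rose from 3.96 ± 1.0167 TPM to 9.17 ± 1.67, 8.06 ± 1.28 and 17.5 ± 3.09 TPM, and was higher in HPLM/B27 than in RPMI/B27 (0.87, standard error 0.18, adjusted p = 0.0146) and in RPMI_glcM/B27 (1.03, standard error 0.18, adjusted p = 0.0387).

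Markers of other cell types moved in the same comparisons. The 10 fibroblast markers summed to 544 to 921 TPM at Day 16, 229 to 439 in RPMI/B27, 178 to 244 in RPMI_glcM/B27 and 233 to 282 in HPLM/B27, and 4, 6 and 5 of the 7 tested were lower than at Day 16, where 17.8%, 17.8% and 22.4% of all genes were. THY1 was under 1 TPM in all libraries, and FN1 was the most abundant. The 10 smooth muscle and pericyte markers, led by GUCY1A1, summed to 234 to 270 TPM at Day 16, 184 to 299 in RPMI/B27, 135 to 183 in RPMI_glcM/B27 and 155 to 168 in HPLM/B27, and of the 6 tested 2, 4 and 5 were lower and 1, 1 and 1 higher, beside the same shares of all genes lower and 2.08%, 3.34% and 3.00% higher. HIGD1B was under 1 TPM in all libraries, and LMOD1 is in this list and in the contractile list. The 6 hepatic endoderm markers, led by AFP, summed to 398 to 701 TPM at Day 16 and 294 to 533, 87.7 to 196 and 65.3 to 186 TPM at Day 30. Endothelial markers, led by KDR, summed to 13.7 to 54.8 TPM in all libraries, with VWF, CLDN5, EMCN and TIE1 under 1 TPM. Epicardial markers, led by TBX18, summed to 6.78 to 27.8 TPM. Pluripotency markers, led by LIN28A, summed to 0.492 to 4.67 TPM, with POU5F1, NANOG, SOX2 and DPPA4 under 1 TPM. In each of these lists 1 gene was tested. The endothelial and the pluripotency gene were lower than at Day 16 in all media. The epicardial gene was higher in RPMI/B27 and lower in HPLM/B27. The part of these in the differences of ACTA2, TAGLN, MYL9 and ACTG2 was not tested.

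The 9 genes did not vary as 1 block. Over the 16 libraries log2 levels of ACTA2 and TAGLN had a Pearson correlation of 0.97, ACTA2 and MYL9 0.94, and TAGLN and MYL9 0.93, whereas ACTA1 had 0.16 with ACTA2 and -0.15 with ACTG2. With SRF the correlation was 0.86 for ACTC1, 0.66 for ACTA2 and 0.05 for ACTG2. With MYOCD it was 0.79 for ACTG2, 0.69 for ACTA2 and -0.35 for ACTA1. The points share group, scaling and library, and replicate 3 of RPMI/B27 is among them, so these values are descriptive.

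Of 6833 genes that averaged 10 TPM or more, those most like ACTC1 over the 16 libraries were THBS1, PRKAG2 and ITGB1BP2 (Pearson correlation 0.93, 0.90 and 0.90). Those most like ACTA1 were NPPA, which encodes atrial natriuretic peptide, MXRA7 and TGFB1I1 (0.86, 0.80 and 0.68). For ACTA2 they were MYL6, the essential light chain of smooth muscle and non-muscle myosin, NES, which encodes nestin, and PALM2 (0.96, 0.96 and 0.95). For TAGLN they were ACTN1, which encodes a non-muscle alpha-actinin, MYL6 and CSRP1 (0.96, 0.95 and 0.95).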

How the data were processed

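RNA of 16 wells was sequenced. Per the study's methods, the authors made libraries with a stranded total RNA kit, aligned reads with STAR 2.5.3a to hg38 and counted them with featureCounts 2.0.3 (versions from the submitters' processing notes), and deposited values in TPM for 43388 genes. Annotation, gene lengths, strand setting and treatment of reads with several matches are not given in the sources used here. TPM divides by all reads on genes, so abundant RNAs move all other values.

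Whole reads were recovered from the steps between low TPM values for all 31047 genes above 0, which gives depths of 7744784 to 16183671. Genes that averaged 1 TPM or more (16122) were fitted as log2(TPM + 1) with limma 3.58.1 (R 4.3.3, empirical Bayes with trend) over all 4 groups, with Benjamini-Hochberg adjustment and a threshold of 0.05. Fold changes are on that scale and understate low genes. Two-sided exact permutation tests were used for ratios (scipy 1.17.1). On simulated data for HPLM/B27 against Day 16, 200 of 200 genes changed by 1.5 (log2) were recovered, with 14 false calls among 16122 genes. The changed genes were drawn from those with many reads, all genes had the same spread setting, and no library stood apart. The check therefore does not cover genes as variable between wells as ACTA1, ACTA2 and TAGLN. The members and lists were chosen with earlier results of these data known. Related genes were named by a rule: in each list and comparison up to 4 with the smallest adjusted p past 0.05, from which examples are given, and ACTB, ACTG1, SRF and MYOCD always. Alternatives were another pseudocount, other filters, other scalings, a fit of only the groups compared, a replicate block, RNR1 as a covariate, limma-voom on recovered reads, and leaving out each library. Leaving out both libraries that stood apart was chosen after seeing the data. The labels and the study's methods give 4 wells per group, and the series' design text gives 3.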

Additional observations from a re-analysis of the deposited data

Results flagged for a closer look

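Dixon's test was run on 44 groups of 4 values (the 9 genes and the 2 ratios in each group). Chance gives about 1 in 20 for independent, normally distributed values. These groups share libraries and genes that vary together, so that rate is no measure of an excess here. In 9 of the 44 groups a library lay far from the other 3. Of these, 5 were replicate 3 of Day 30 RPMI/B27 and its high values: ACTA1 at 468 TPM, ACTA2 at 444 TPM, TAGLN at 129 TPM, TPM2 at 318 TPM and CALD1 at 199.95 TPM. In Day 30 HPLM/B27 replicate 4 was high for TAGLN, at 50.8 TPM, and for CNN1, at 219 TPM. In Day 30 RPMI_glcM/B27 replicate 2 was high for ACTA1, at 135 TPM, where the other 3 lay between 122.95 and 124.1 TPM. The log2 ratio of ACTA2 to ACTC1 was low in replicate 2 of Day 16, at -3.94.

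The change of ACTG2 since Day 16 differed between HPLM/B27 and RPMI/B27, with a difference of -0.88 on the log2 scale (standard error 0.21, limma adjusted p = 0.0325). That is the same test as the direct comparison of these groups at Day 30. ACTG2 did not pass in RPMI_glcM/B27 against RPMI/B27 or in HPLM/B27 against RPMI_glcM/B27 (limma adjusted p = 0.459 and 0.612). As given above, the call was lost without some single libraries and without both libraries that stood apart.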

How the results depend on the processing

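No log2 fold change of the 9 genes that was called turned its direction under any alternative. Over all alternatives, 1294 member fold changes stayed on their side of the threshold, 87 lost a call and 23 gained one, and the 118 ratio values moved by less than the spread between replicates. Genes called (all fitted genes) in RPMI/B27 against Day 16 were 3203, and 998 with only these 2 groups fitted, 1385 with RNR1 as a covariate and 1844 without both libraries that stood apart. In RPMI_glcM/B27 against RPMI/B27 they were 354, and 1945 with median-of-ratios scaling, 1201 without mitochondrial, ribosomal RNA and RN7SK genes, 45 with 2 groups, 727 with RNR1 and 1993 with limma-voom. In HPLM/B27 against RPMI/B27 they were 388, and in the same order 2083, 1326, 81, 1104 and 2484. In HPLM/B27 against RPMI_glcM/B27 they were 11, and in the same order 262, 102, 33, 91 and 268, with 38 without both libraries. Members called in RPMI/B27 against Day 16 were 1, and 0 with a pseudocount of 0.1, with all genes, with median-of-ratios scaling, without mitochondrial and ribosomal RNA, with 2 groups and with RNR1, 2 with a filter of 5 TPM, and 5 without both libraries. Of all genes, 2607 of 9753 were called with the 5 TPM filter and 1844 of 16043 without both libraries. In RPMI_glcM/B27 against Day 16 they were 4, and 0 with median-of-ratios scaling, 2 without mitochondrial and ribosomal RNA and 1 with limma-voom. In HPLM/B27 against Day 16 they were 4, and 2 with each of these 3 and with all genes. In HPLM/B27 against RPMI/B27 the 1 (ACTG2) became 0 with all genes and with 2 groups, and without both libraries the 1 called was ACTC1 and not ACTG2. The cause was not tested. Leaving out 1 library gave 1744 to 5012, 2330 to 4122, 2792 to 5064, 144 to 439, 186 to 519 and 1 to 36 genes in the 3 comparisons with Day 16 (order RPMI/B27, RPMI_glcM/B27, HPLM/B27) and in the 3 between media (order as above), and 0 to 4, 0 to 4, 1 to 5, 0, 0 to 1 and 0 members.

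Deviations from the group means correlated at -0.066 to 0.211 between libraries with the same replicate number (6 of 24 above 0.1) and at -0.307 to 0.161 between different numbers (2 of 72 above 0.1). The closest library of another group had the same number in 18 of 48 combinations. Not all same-number pairs were above 0.1, and 1 of 16 libraries was closest to its own number in all 3 other groups. The numbers were therefore not taken to pair the libraries for the main results, but these criteria would miss a weak pairing. With the replicate block, 4734, 4487 and 5520 genes were called against Day 16, where 3203, 3400 and 4088 were called without it. Between media 721, 732 and 48 were called with the block, and 354, 388 and 11 without it. The number called was thus higher with the block in each of the 6 comparisons. Members called in RPMI/B27 against Day 16 became 2 of 9 with the block, with MYL9 at -0.46 (limma adjusted p = 0.0458). Of all 16122 genes, 4292 were lower and 442 higher there with the block.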
